A study of Mus musculus with 9 samples.

Results

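Transcripts of the nuclear-encoded genes of respiratory complex I were followed through 3 pluripotent culture states of 1 mouse embryonic stem cell (mESC) line. The 46 genes were the protein-coding rows of the count table whose mouse symbol begins with Nduf, out of 38293 rows. They comprised 36 subunits of the enzyme (7 core and 29 accessory), 8 assembly factors (Ndufaf1 to Ndufaf8) and Ndufa4 and Ndufa4l2. Ndufa4 and its paralog Ndufa4l2 are named after complex I but are not among its subunits in current structures. Ndufa4 is counted with complex IV today. A further 5 symbols of the same form were left out. Of these 4 are processed pseudogenes, and Ndufb1-ps is annotated as a long non-coding RNA and has no row in the count table. No gene named Ndufb1 is among the 36 subunits. RNA-seq of the E14 line (strain 129/Ola) covered mESC-2i, labelled naive and grown without serum in N2B27 with LIF (10 ng/mL), the MEK inhibitor PD0325901 (1 μM) and the GSK3 inhibitor CHIR99021 (3 μM). The second state was mESC-ser, which carries the label primed and was kept in 15% foetal serum with LIF (10 ng/mL). The third was epiblast-like cells (EpiLC), made from mESC-2i on fibronectin with activin A (20 ng/mL), bFGF (12 ng/mL) and 1% KSR. Each state had 3 libraries numbered as biological replicates. Nothing said how the cultures were kept apart, so p-values measure only the spread between these libraries, and a single line bounds what they cover.

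Complex I takes electrons from NADH and passes them to ubiquinone while it pumps protons across the inner mitochondrial membrane. Its matrix arm holds the N module, where NADH is oxidised by flavin, and the Q module, where iron-sulphur clusters hand the electrons to ubiquinone. The membrane arm, with a proximal and a distal part, does the pumping, and its central subunits come from mitochondrial DNA. The accessory subunits surround this core, and assembly factors build the modules without staying in the finished enzyme. Naive pluripotent cells are known to respire more than primed ones, which rely more on glycolysis.

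Libraries held 7187576 to 16829549 counts, and levels are given as CPM (counts relative to library size, in the usual unit), scaled by TMM over the 9 libraries. Markers followed the labels in part. The sum of 6 naive markers ran from 1640 to 1680 CPM for mESC-2i, from 1160 to 1220 for mESC-ser and from 37.8 to 41.6 for EpiLC. By this sum mESC-ser, though labelled primed, stood nearer to mESC-2i. Mean Nr0b1 and Zfp42 were 52.2 and 293 CPM in mESC-2i and higher in mESC-ser, at 107 and 353 CPM. Esrrb, Klf4, Tbx3 and Prdm14 were lower in mESC-ser. The 4 formative markers summed to 71.8 to 80.3 CPM for mESC-2i, 609.0 to 711.0 for mESC-ser and 1620 to 1710 for EpiLC. The sum of 5 primitive endoderm markers stayed at 11.8 CPM or lower in every library. Mesoderm markers reached 77.9 to 99.4 CPM in mESC-2i, nearly all of it the gene T, against at most 5.51 CPM elsewhere. The 3 trophectoderm markers reached 103.0 to 115.0 CPM in mESC-ser, nearly all of it Krt8 and with Elf5 near 0, and at most 58.4 CPM elsewhere. The 4 fibroblast markers reached 60.5 to 80.3 CPM in mESC-ser, mostly Col1a1, and 32.4 to 44.5 CPM elsewhere. In EpiLC most of the sum was Thy1, at a mean of 29.5 CPM. Pou5f1 and Sox2 together ranged from 1040 to 1540 CPM. The part of these markers in the results was not tested.

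Transcript length moved with both the groups and single libraries, and complex I genes are short. Across protein-coding genes, the rank correlation of the log2 fold change with merged exon length was 0.28 for mESC-ser against mESC-2i, -0.30 for EpiLC against mESC-2i and -0.498 for EpiLC against mESC-ser, a description over genes that share libraries. Between mESC-2i libraries 2 and 3, which carry the same label, the difference in log2(CPM + 1) had a rank correlation of -0.479 with length. Library 2 of mESC-2i held the highest level of its group for 34 of the 36 subunits, and library 3 the lowest for 36 of 36. The counts are therefore given with and without offsets that remove the smooth dependence of every library on length and GC content.

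Summed over the 36 subunits, the level was lowest in mESC-ser and highest in EpiLC. The 3 mESC-2i libraries held 2886.5, 3349.5 and 2424.5 CPM, the mESC-ser libraries 1801.1, 1861.2 and 1584.8 CPM, and the EpiLC libraries 5625.1, 5757.4 and 5444.5 CPM. No library of any state overlapped those of another. The means were 2887 ± 463 CPM, 1749 ± 145 CPM and 5609 ± 157 CPM (SD, n = 3), or 1.94 times more in EpiLC than in mESC-2i and 3.21 times more than in mESC-ser. The mean was lowest in mESC-ser for 35 of 36 subunits and highest in EpiLC for 34. No share of all tested genes with this order is given, so these counts have no background. The genes nearest to the subunits in coding transcript length moved the same way. Their median log2 fold changes against mESC-2i were -0.56 in mESC-ser and 1.03 in EpiLC. The 8 assembly factors had sums of 142.9 ± 9.71 CPM (mESC-2i), 124.5 ± 15.1 CPM (mESC-ser) and 302.1 ± 12.7 CPM (EpiLC), and here the mESC-2i and mESC-ser libraries overlapped. In bulk samples, fewer cells that express a gene and less RNA per cell cannot be told apart.

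**Figure D1:**
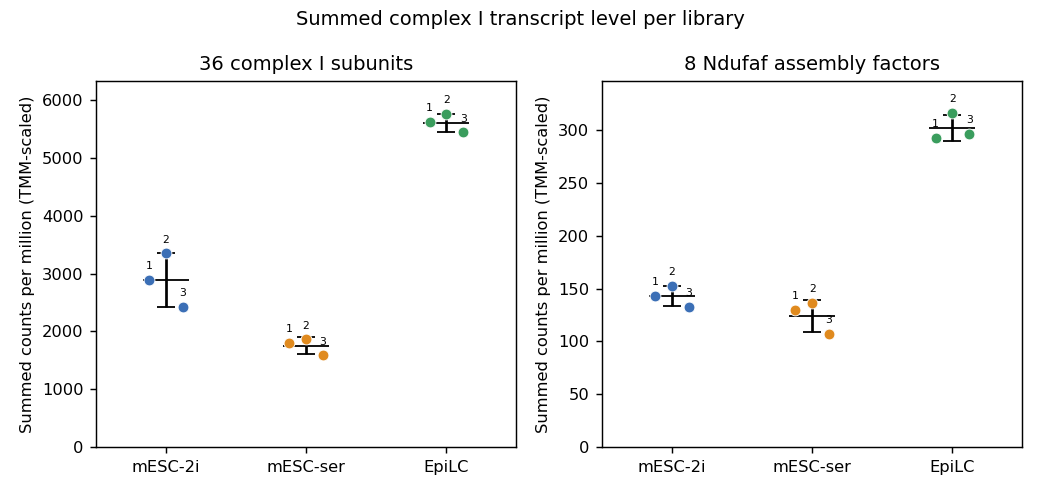
Summed CPM (vertical axis, from 0) of the 36 subunits (left) and the 8 assembly factors (right) in each library (points, numbered by replicate), with the mean and SD of each state (black bars). The subunit sums do not overlap between states, while for the assembly factors the EpiLC libraries alone stand clear of the rest.

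The first comparison set mESC-ser beside mESC-2i, the 2 stem cell media. Subunit transcripts were lower in serum: 31 of the 36 subunits fell, by 1.43 to 3.95-fold, and 0 rose. A gene was called at an adjusted p under 0.05 (edgeR's quasi-likelihood test, Benjamini-Hochberg) with an absolute log2 fold change over 0.5. By that rule 30.3% of the 15728 tested genes fell and 25.9% rose. Among protein-coding genes of like length (merged exons of 798.5 to 4212 bp) 37.1% fell. The median log2 fold change was -0.85 over the subunits and -0.22 over genes of like length. That set is the longer one, with a median merged exon length of 2410 bp against 1643.5 bp for the subunits. Its range holds 26 of the 36 subunits. Of the 8 assembly factors 2 fell, Ndufaf5 and Ndufaf6, with a median of -0.12. Subunits not called were Ndufs1 and Ndufv1 of the core and Ndufa8, Ndufb10 and Ndufs6.

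The fall was shallower once length and GC content were offset. With offsets from merged exon length 22 subunits fell, at a median of -0.58, against 28.7% of all tested genes lower and 24.4% higher. With the length of the longest coding transcript in their place, a setting chosen after the data were seen, 17 fell, at a median of -0.50, against 27.7% lower and 24.2% higher. Those 17 were called in every one of the 3 fits and included Ndufb4, Ndufa13, Ndufs4, Ndufv2, Ndufb5 and Ndufb2. Set beside the 500 protein-coding genes nearest to it in coding transcript length, a subunit lay lower in 31 of 36 cases, by a median of -0.34. The neighbours themselves had a median of -0.56, or -0.35 when chosen by merged exon length.

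The second comparison followed the passage from mESC-2i to EpiLC, and shares its mESC-2i libraries with the first. Here 31 of the 36 subunits rose, by 1.53 to 4.38-fold, and 0 fell, against 32.0% of 15378 tested genes higher and 37.8% lower. The median was 1.02 over the subunits and 0.21 over genes of like length, of which 39.8% rose. Of the assembly factors 6 rose and 0 fell, at a median of 1.26. With offsets from merged exon length 23 subunits rose, at a median of 0.67, against 31.1% of genes higher and 34.4% lower. With offsets from coding transcript length 13 did, at a median of 0.41, against 30.3% higher and 34.0% lower.

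Other transcripts of like coding length rose about as much as the subunits from mESC-2i to EpiLC. Beside the 500 genes nearest in coding transcript length, 19 subunits lay higher and 17 lower, with a median difference of 0.06, and the neighbours themselves had a median of 1.03. By merged exon length, which is longer for many members, 24 lay higher and 12 lower, with a median difference of 0.46. The assembly factors kept more: 6 of 8 lay above their neighbours by either length, by a median of 0.96 and 0.74, and the same 6 were called higher in all 3 fits. The 13 subunits called in all 3 fits were Ndufs7, Ndufs8, Ndufa2, Ndufa5, Ndufa12, Ndufa13, Ndufab1, Ndufb2, Ndufb8, Ndufc1, Ndufs4, Ndufs6 and Ndufv3.

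The third comparison, EpiLC against mESC-ser, shares libraries with both others and gave the widest gap. Of the 36 subunits 35 rose, by up to 8.12-fold, and 0 fell, where 35.5% of 15345 tested genes rose and 37.8% fell. The median was 2.02 over the subunits and 0.47 over genes of like length, of which 48.8% rose. Of the assembly factors 7 rose, at a median of 1.45. With offsets from merged exon length 33 subunits rose, at a median of 1.27 (34.3% of genes higher, 31.5% lower), and from coding transcript length 29 did, at a median of 0.92 (32.8% higher, 29.2% lower). Beside the 500 genes nearest in coding transcript length 27 subunits lay higher and 9 lower, by a median of 0.35. The neighbours themselves had a median of 1.61, or 1.09 when chosen by merged exon length. Scaling by total counts instead of TMM moved the median of all tested genes from -0.07 to -0.41 here and from -0.11 to -0.45 in EpiLC against mESC-2i, which left 28.0% of tested genes higher and 46.9% lower here, and 24.1% higher and 47.4% lower there. The subunit medians were then 1.68 and 0.68, with 33 and 26 subunits higher.

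**Figure D2:**
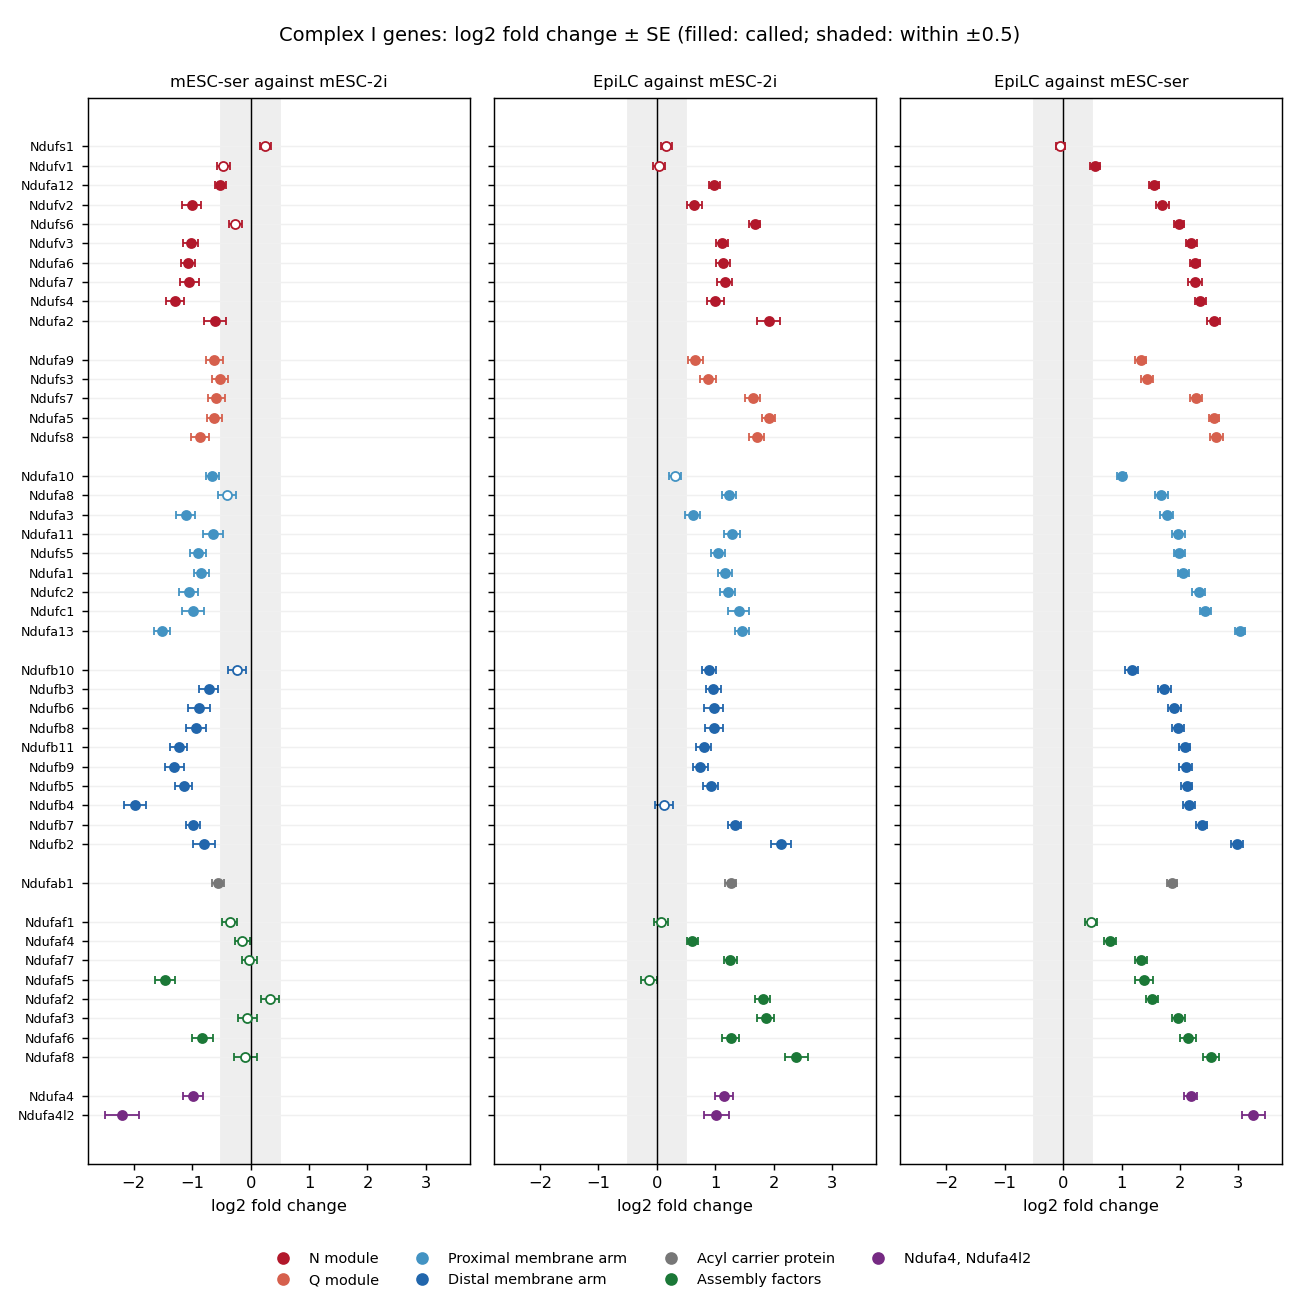
Log2 fold change ± SE (horizontal axis) of the single genes in the 3 comparisons (panels), ordered by module. Filled points were called, open points were not, and the grey band spans -0.5 to 0.5. In the right panel most subunits lie well to the right of the band, with Ndufs1 inside it, and in the left panel most assembly factors lie inside it.

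**Figure D3:**
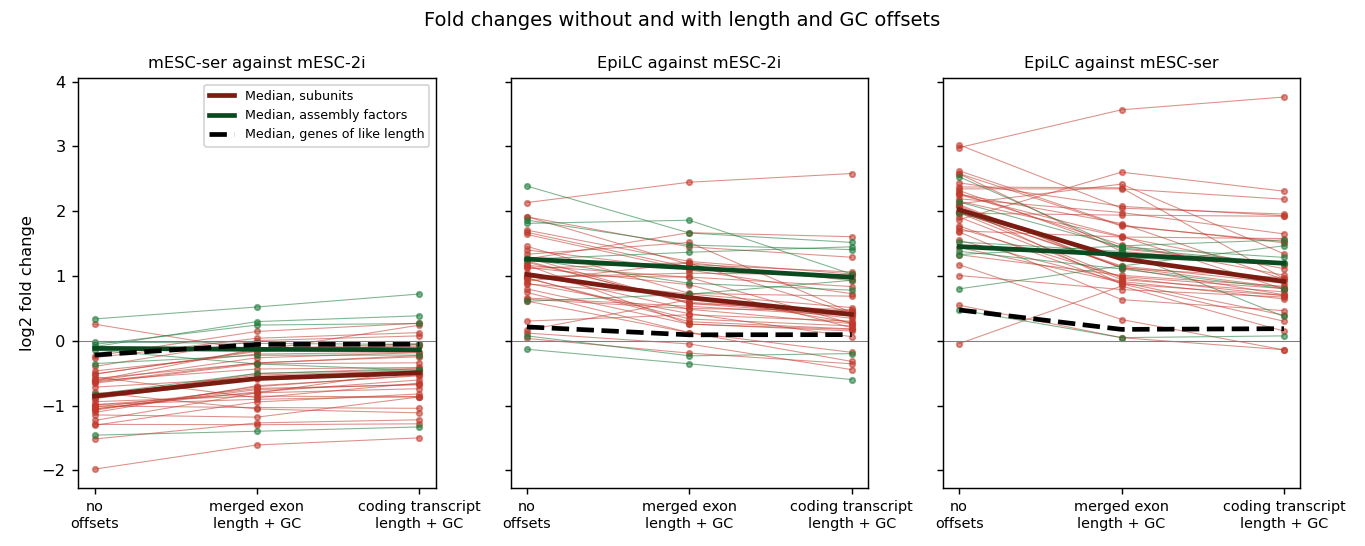
Log2 fold change of single subunits (thin red lines) and assembly factors (thin green lines) without offsets, with offsets from merged exon length and GC content, and with offsets from coding transcript length and GC content. Thick lines are medians, the dashed one of protein-coding genes of like length, a set with a longer median length than the subunits. In EpiLC against mESC-2i the subunit median drops from 1.02 to 0.41, while that of the assembly factors drops from 1.26 to 0.98.

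Within the N module, where NADH is oxidised, the core was split. Ndufs1 (chr1:63143596-63176833, minus strand), a core subunit with several iron-sulphur clusters, stood at 126, 116 and 113 CPM in the mESC-2i libraries 1, 2 and 3, 153, 151 and 137 CPM in the mESC-ser libraries and 138, 127 and 137 CPM in the EpiLC libraries. It was the one subunit whose mESC-ser libraries all lay above those of mESC-2i, and its EpiLC and mESC-ser libraries overlapped. No comparison without offsets called it, with log2 fold changes of 0.26 (SE 0.10, adjusted p = 0.0445) for mESC-ser against mESC-2i, 0.16 (SE 0.09) for EpiLC against mESC-2i and -0.05 (SE 0.08) for EpiLC against mESC-ser. Its merged exons measure 8086 bp and its longest coding transcript 2661 bp, and offsets from the first length gave calls in EpiLC, at 0.63 over mESC-2i and 0.84 over mESC-ser. With the second length both were uncalled, at 0.35 and 0.15. Exons of Eef1b2 overlap it on the other strand, and the kit did not mark strand.

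Ndufv1, which binds the flavin that takes electrons from NADH, had 142, 163 and 126 CPM in the mESC-2i libraries 1, 2 and 3, 111, 104 and 110.0 CPM in the mESC-ser libraries and 154, 156 and 138 CPM in the EpiLC libraries. The mESC-ser libraries were the lowest and did not overlap the others, while mESC-2i and EpiLC did. It was called in EpiLC against mESC-ser alone, at 0.55 (SE 0.08, adjusted p = 8.81e-06), and that call was lost with either offset (0.05 and -0.14). For mESC-ser against mESC-2i the value was -0.47 (SE 0.11, adjusted p = 0.00354), short of the fold threshold, and it passed at -0.55 without mESC-2i library 3.

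Ndufv2, which holds an iron-sulphur cluster beside the flavin, did move. Its levels were 174, 198 and 135 CPM in the mESC-2i libraries 1, 2 and 3, 98.8, 92.6 and 71.3 CPM in the mESC-ser libraries and 281, 266 and 253 CPM in the EpiLC libraries. The 3 states were fully apart, in the order mESC-ser, mESC-2i, EpiLC. It fell 2.01-fold in mESC-ser (log2 fold change -1.01 ± 0.16 SE, adjusted p = 0.000294), a value that offsets left at -1.03 and -1.04. In EpiLC it rose by 0.64 (SE 0.13, adjusted p = 0.000973) over mESC-2i, a call that offsets removed at 0.50 and 0.46.

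**Figure D4:**
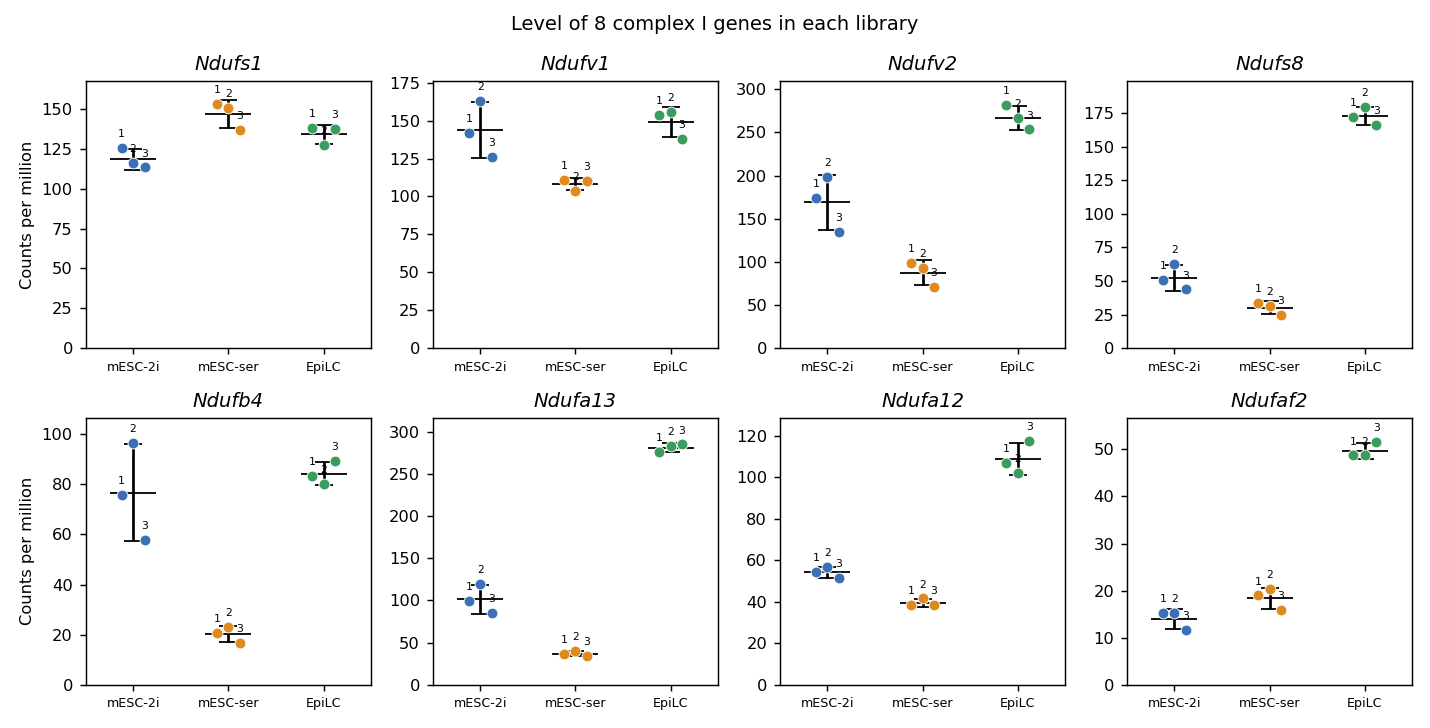
CPM (vertical axes, each from 0) of 8 genes in every library, with points numbered by replicate and black bars for the mean and SD of each state. Ndufs1 stays between 113 and 153 CPM, Ndufb4 is low in mESC-ser alone, and Ndufaf2 does not share the drop of its paralog Ndufa12 in mESC-ser.

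Ndufs4, at the junction of the N and Q modules, fell in mESC-ser at a log2 fold change of -1.29 (SE 0.15, adjusted p = 3.45e-05) and rose in EpiLC over mESC-2i by 1.00 (SE 0.14, adjusted p = 6.21e-05), and it kept both calls in all 3 fits. Its levels were 84, 90.9 and 61.2 CPM in the mESC-2i libraries 1, 2 and 3, 33, 36.6 and 30.8 CPM in the mESC-ser libraries and 169.8, 163 and 146 CPM in the EpiLC libraries, with no overlap between states. Ndufa2, with a thioredoxin-like fold, held 29.5, 46.5 and 25.6 CPM in the mESC-2i libraries 1, 2 and 3, 21.7, 23.9 and 23.5 CPM in the mESC-ser libraries and 135, 143 and 110.3 CPM in the EpiLC libraries. EpiLC stood far above both stem cell states, at 3.77-fold over mESC-2i (log2 fold change 1.91 ± 0.20 SE, adjusted p = 6.26e-06). Its fall in mESC-ser rested on mESC-2i library 2 and on mESC-ser libraries 1 and 3: the call was lost without any of these, at -0.32, -0.54 and -0.62, and with either offset, at -0.13 and -0.05.

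Ndufs6, a zinc-binding subunit, was not called between the stem cell media and rose in EpiLC. It had 61.6, 68.5 and 58.3 CPM in the mESC-2i libraries 1, 2 and 3, 50.9, 60.6 and 52.1 CPM in the mESC-ser libraries and 197, 199 and 212 CPM in the EpiLC libraries. The first 2 states overlapped, at a log2 fold change of -0.26 (SE 0.11, adjusted p = 0.0592), and EpiLC lay above both, at 1.67 (SE 0.09, adjusted p = 8.54e-08) over mESC-2i. Ndufv3, Ndufa6 and Ndufa7 each fell in mESC-ser and rose in EpiLC, with log2 fold changes from -1.07 to -1.03 in the first comparison and from 1.11 to 1.16 in the second. By coding transcript length the rises of Ndufa6 and Ndufa7 were not called, at 0.20 and 0.26. Of the N module as a whole 7 of 10 fell in the first comparison (30.3% of all tested genes) and 8 rose in the second (32.0%), or 5 in each by coding transcript length (27.7% and 30.3%).

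A pair of paralogs sits at this module: the assembly factor Ndufaf2 holds the place that the subunit Ndufa12 later takes. Ndufa12 had 54.3, 56.8 and 51.5 CPM in the mESC-2i libraries 1, 2 and 3, 38.4, 41.6 and 38.4 CPM in the mESC-ser libraries and 107, 102 and 117 CPM in the EpiLC libraries. Its states did not overlap, yet the fall in mESC-ser was at the threshold, at -0.52 (SE 0.10, adjusted p = 0.00107). That call was lost without mESC-2i library 2 (-0.49), mESC-ser library 1 (-0.47) or mESC-ser library 3 (-0.48), under DESeq2 (-0.48) and with either offset (-0.15 and -0.08). Ndufaf2 stood at 15.2, 15.3 and 11.6 CPM in the mESC-2i libraries 1, 2 and 3, 19, 20.3 and 16 CPM in the mESC-ser libraries and 48.7, 48.7 and 51.5 CPM in the EpiLC libraries. Here the mESC-ser libraries lay above those of mESC-2i, though no call was made (0.34 ± 0.16 SE, adjusted p = 0.0789), and offsets brought one, at 0.52 and 0.72. In EpiLC both rose over mESC-2i, Ndufa12 by 0.99 and Ndufaf2 by 1.81 on the log2 scale. Exons of Ndufaf2 overlap B230220B15Rik on the other strand, and 26.2% of the 50-base stretches of Ndufa12 also occur in another gene.

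In the Q module, which passes electrons to ubiquinone, the core subunits Ndufs8, Ndufs7 and Ndufs3 rose in EpiLC. Ndufs8, which carries iron-sulphur clusters, had 50.7, 62.5 and 43.7 CPM in the mESC-2i libraries 1, 2 and 3, 33.7, 31.5 and 24.5 CPM in the mESC-ser libraries and 172, 179.8 and 166 CPM in the EpiLC libraries. EpiLC stood clear at 6.15-fold over mESC-ser and 3.26-fold over mESC-2i, and both calls held in all 3 fits. Ndufs7, which holds the last cluster before ubiquinone, had 47.2, 57.7 and 39.4 CPM in the mESC-2i libraries 1, 2 and 3, 31.8, 38.1 and 30.3 CPM in the mESC-ser libraries and 145, 163 and 146 CPM in the EpiLC libraries. It rose by 1.64 (SE 0.13, adjusted p = 1.14e-06) in EpiLC over mESC-2i, while its fall in mESC-ser (-0.58 ± 0.15 SE, adjusted p = 0.00592) was lost without mESC-2i library 2, at -0.44, and with either offset, at -0.35 and -0.23.

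Ndufs3, also of the core, measured 55.3, 61.2 and 44.4 CPM in the mESC-2i libraries 1, 2 and 3, 37.6, 43.3 and 36.2 CPM in the mESC-ser libraries and 94, 111 and 92.8 CPM in the EpiLC libraries. The states did not overlap. Its call in mESC-ser (-0.52 ± 0.14 SE, adjusted p = 0.00661) was lost without mESC-2i library 1 (-0.48) or 2 (-0.42) or mESC-ser library 1 (-0.46) or 3 (-0.45) and under DESeq2 (-0.48), and with either offset, at -0.17 and -0.06. Its rise in EpiLC over mESC-2i (0.87) was not called by coding transcript length, at 0.28. Of its 50-base stretches 39.7% also occur in other genes, Kbtbd4 among them, so its level is uncertain. Ndufa5, an accessory subunit, rose 3.76-fold in EpiLC over mESC-2i (log2 fold change 1.91 ± 0.11 SE, adjusted p = 8.42e-08), from 39.4, 48.4 and 37.5 CPM to 161, 159 and 158 CPM, with 26, 30.9 and 28.1 CPM in mESC-ser. Ndufa9, which binds NADPH, rose by 0.66, and its fall of -0.62 in mESC-ser was not called without mESC-2i library 2 (-0.49) or with either offset (-0.44 and -0.41). By coding transcript length its rise was not called either, at 0.38.

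Among the subunits, those with the largest change of each comparison lay in the membrane arm. Ndufa13, also known as Grim19 and placed in the proximal part, had 99.5, 119.6 and 84.7 CPM in the mESC-2i libraries 1, 2 and 3, 36.4, 39.7 and 34.4 CPM in the mESC-ser libraries and 276, 283 and 285 CPM in the EpiLC libraries. The states were far apart, with mESC-ser at the bottom and EpiLC 8.12-fold above it (log2 fold change 3.02 ± 0.09 SE, adjusted p = 3.97e-14). The call held in every fit, at 2.05 and 1.95 with offsets. Of its 50-base stretches 28.5% also occur in other genes, and Tssk6 lies opposite it. Ndufa10 fell in mESC-ser (-0.66, not called with offsets at -0.36 and -0.34) and was not called in EpiLC against mESC-2i (0.30 ± 0.10 SE, adjusted p = 0.0188), and Ndufa8 rose in EpiLC (1.23, not called at 0.48 by coding transcript length) but was not called in mESC-ser (-0.40 ± 0.15 SE, adjusted p = 0.0407). Ndufa3 rose in EpiLC over mESC-2i at 0.61, a call lost without mESC-2i library 3 (0.49) and with either offset, at 0.12 and -0.32.

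In the distal part Ndufb4 fell the furthest of all subunits in mESC-ser. It had 75.8, 96.6 and 57.8 CPM in the mESC-2i libraries 1, 2 and 3, 20.8, 23.1 and 16.9 CPM in the mESC-ser libraries and 83.3, 80.2 and 89.3 CPM in the EpiLC libraries. The mESC-ser libraries were 3.95-fold below those of mESC-2i (log2 fold change -1.98 ± 0.19 SE, adjusted p = 7.85e-06), while EpiLC lay within the range of mESC-2i (0.12 ± 0.16 SE, adjusted p = 0.5). Offsets left the fall at -1.61 and -1.5. Its processed pseudogene Ndufb4c shares sequence with it, and 37.0% of its 50-base stretches occur in other genes, so reads could be split between them. Ndufb9 fell at a log2 fold change of -1.30 (SE 0.17, adjusted p = 6.08e-05), from 122, 147 and 101 CPM to 56.8, 58.1 and 41.2 CPM. It rose to 204, 216 and 208 CPM in EpiLC, though that rise over mESC-2i was not called with offsets, at 0.13 and -0.18. Exons of Gm49356 overlap Ndufb9 on the same strand, and 23.4% of the 50-base stretches of Ndufb9 also occur there, so its level is uncertain.

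Ndufb2 rose the most of all subunits from mESC-2i to EpiLC. Its levels were 13.9, 20.4 and 12.2 CPM in the mESC-2i libraries 1, 2 and 3, 9.38, 9.76 and 8.78 CPM in the mESC-ser libraries and 69.9, 74.4 and 62.6 CPM in the EpiLC libraries. EpiLC lay 4.38-fold above mESC-2i (log2 fold change 2.13 ± 0.17 SE, adjusted p = 1.03e-06) and 7.89-fold above mESC-ser, with no overlap. It is annotated with 5628 bp of merged exons that overlap Braf on the other strand and Gm42420 on its own, so which transcript the reads came from is uncertain, and the offsets that use this length raised the value to 2.45. Ndufb10 stood at the other end: at 69.5, 79.9 and 58.4 CPM in the mESC-2i libraries 1, 2 and 3, 66.6, 67.6 and 49.4 CPM in the mESC-ser libraries and 121, 134 and 133 CPM in the EpiLC libraries, its stem cell states overlapped (-0.24 ± 0.15 SE, adjusted p = 0.192). It rose over mESC-ser by 1.17 (SE 0.11, adjusted p = 3.45e-08), which offsets brought to 0.33 and -0.14. Ndufab1, the acyl carrier protein found in both arms, had log2 fold changes of -0.56 (mESC-ser) and 1.26 (EpiLC) over mESC-2i, both called in all 3 fits. Of its 50-base stretches 12.3% also occur in other genes, the processed pseudogene Ndufab1-ps among them. Exons of Gm44986 overlap Ndufab1 on the other strand, so its level is uncertain.

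Between the stem cell media 2 of the 8 assembly factors fell, beside 30.3% of all tested genes. Ndufaf5, which hydroxylates Ndufs7, had 18.4, 19.8 and 15.8 CPM in the mESC-2i libraries 1, 2 and 3, 6.86, 8.23 and 5.51 CPM in the mESC-ser libraries and 17, 17.9 and 14.8 CPM in the EpiLC libraries. It fell 2.75-fold in mESC-ser (log2 fold change -1.46 ± 0.17 SE, adjusted p = 3.63e-05), a call that held in all 3 fits, and EpiLC overlapped mESC-2i (-0.13 ± 0.14 SE, adjusted p = 0.391), where coding transcript length alone brought a call, at -0.60. Its partner Ndufaf8 had 8.10, 10.0 and 5.85 CPM in the mESC-2i libraries 1, 2 and 3, 7.56, 8.31 and 7.46 CPM in the mESC-ser libraries and 37.7, 50.3 and 38.1 CPM in the EpiLC libraries. The stem cell states overlapped (-0.09 ± 0.19 SE, adjusted p = 0.693), and EpiLC lay 5.23-fold above mESC-2i (2.39 ± 0.20 SE, adjusted p = 1.28e-06). The difference between the partners was not tested.

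Ndufaf3 and Ndufaf4, which work as a pair on the Q module, both rose in EpiLC and were not called between the stem cell media. Ndufaf3 had 8.72, 12.8 and 11.1 CPM in the mESC-2i libraries 1, 2 and 3, 10.6, 12.5 and 9.88 CPM in the mESC-ser libraries and 38.3, 44.6 and 37.8 CPM in the EpiLC libraries. It rose by 1.86 (SE 0.15, adjusted p = 8.95e-07), with Impdh2 opposite it. Ndufaf4 had 37.2, 35.8 and 39.4 CPM in the mESC-2i libraries 1, 2 and 3, 38.9, 37.8 and 29.3 CPM in the mESC-ser libraries and 60.1, 55.5 and 58 CPM in the EpiLC libraries, and rose less, by 0.61 (SE 0.09, adjusted p = 0.000135). Their values in mESC-ser against mESC-2i were -0.06 (SE 0.17, adjusted p = 0.776) and -0.14 (SE 0.13, adjusted p = 0.353). The Ndufaf4 call in EpiLC was lost under total-count scaling (0.27).

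Ndufaf7, a methyltransferase of the matrix, showed the same order. It held 16, 16.3 and 15 CPM in the mESC-2i libraries 1, 2 and 3, 16.9, 17.6 and 14.1 CPM in the mESC-ser libraries and 36.4, 38.6 and 39.5 CPM in the EpiLC libraries, a rise of 1.26 (SE 0.11, adjusted p = 1.54e-06) with no change called in mESC-ser (-0.02 ± 0.13 SE, adjusted p = 0.901). Ndufaf6, which acts in the early steps of assembly, was the one assembly factor called in all 3 comparisons. Its levels were 11.4, 14.3 and 10.3 CPM in the mESC-2i libraries 1, 2 and 3, 7.63, 7.89 and 5.74 CPM in the mESC-ser libraries and 28.9, 31.4 and 27.1 CPM in the EpiLC libraries. It fell at a log2 fold change of -0.82 (SE 0.18, adjusted p = 0.00222) in mESC-ser, a call lost with coding transcript length (-0.45), and rose by 1.26 (SE 0.14, adjusted p = 1.35e-05) in EpiLC.

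Ndufaf1, of the complex that builds the membrane arm, was called in no comparison. It had 28.1, 28.3 and 23.9 CPM in the mESC-2i libraries 1, 2 and 3, 22.2, 23.8 and 19.5 CPM in the mESC-ser libraries and 26, 29.6 and 29.8 CPM in the EpiLC libraries. The mESC-ser libraries were the lowest, at -0.35 (SE 0.13, adjusted p = 0.0322) against mESC-2i, and EpiLC overlapped mESC-2i. For EpiLC against mESC-ser the value was 0.48 (SE 0.11, adjusted p = 0.000654), under the fold threshold, which it passed without EpiLC library 1 (0.55) or mESC-ser library 2 (0.53) and by DESeq2's size factors used in edgeR (0.50).

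Ndufa4 and its paralog Ndufa4l2 followed the order of most subunits. Ndufa4 had 166, 204 and 126 CPM in the mESC-2i libraries 1, 2 and 3, 91.8, 96.6 and 72.8 CPM in the mESC-ser libraries and 385, 388 and 342 CPM in the EpiLC libraries, with states apart. It fell at a log2 fold change of -0.98 (SE 0.17, adjusted p = 0.000553) and rose by 1.15 (SE 0.15, adjusted p = 4.79e-05), which coding transcript length reduced to 0.27. Ndufa4l2, known as a gene of low oxygen, was scarce: 3.19, 4.59 and 6.24 CPM in the mESC-2i libraries 1, 2 and 3, 0.91, 0.933 and 1.32 CPM in the mESC-ser libraries and 9.93, 9.65 and 9.80 CPM in the EpiLC libraries. It was 4.59-fold lower in mESC-ser than in mESC-2i (log2 fold change -2.20 ± 0.29 SE, adjusted p = 8.8e-05), and its rise from mESC-2i to EpiLC (1.02 ± 0.21 SE, adjusted p = 0.00124) was not called with offsets, at 0.20 and 0.01. Exons of Shmt2 overlap it on the other strand.

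**Figure D5:**
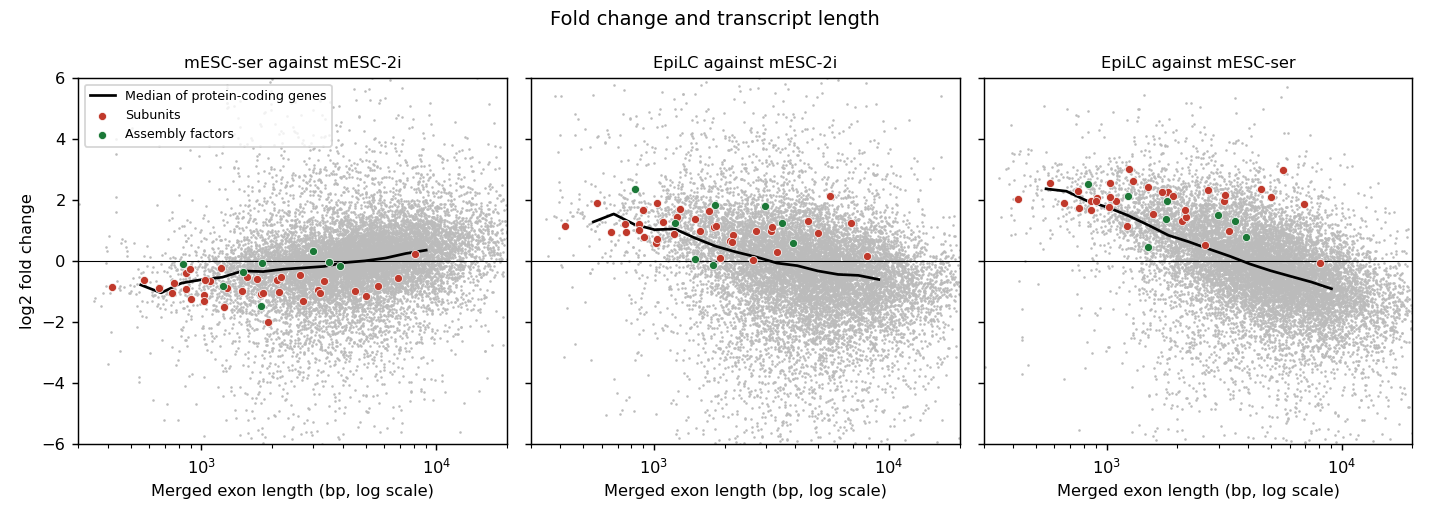
Log2 fold change (vertical axis, shown from -6 to 6) against merged exon length (log axis, bp) in the 3 comparisons, for protein-coding genes (grey), subunits (red) and assembly factors (green). The black line is the median of protein-coding genes in bins of length. Short genes lie lower in mESC-ser and higher in EpiLC, and in EpiLC against mESC-ser Ndufb2, at 5628 bp, lies far above the line.

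Levels of different genes can be set side by side per length only. By merged exon length, the mean over the 9 libraries was highest for Ndufa4 (150.6 RPKM, CPM per kilobase of exon), Ndufa1 (137.3 RPKM) and Ndufb9 (124.5 RPKM), and lowest for Ndufa4l2 (4.73 RPKM), Ndufb2 (5.56 RPKM) and Ndufaf7 (6.67 RPKM). Ndufa1, a membrane subunit encoded on the X chromosome, had 107 ± 15.2 RPKM (mESC-2i), 62 ± 3.60 RPKM (mESC-ser) and 243 ± 11.7 RPKM (EpiLC; SD, n = 3). The assembly factors lay low in this order, each between 6.67 and 23.1 RPKM, and the subunits Ndufb2, Ndufab1, Ndufs1, Ndufb7 and Ndufb5 were no higher than that. By the length of the longest coding transcript the order changed, and Ndufa7 led at 406.1 RPKM, so these levels depend on which transcript is taken.

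Other genes of the pathway were read from lists. The 7 mitochondrially encoded subunits, mt-Nd1 to mt-Nd6 with mt-Nd4l, did not move as one: 3 fell and 1 rose in mESC-ser against mESC-2i, and 5 rose and 2 fell in both EpiLC comparisons. Over all tested genes 30.3% fell and 25.9% rose in the first, 32.0% rose and 37.8% fell in EpiLC against mESC-2i, and 35.5% rose and 37.8% fell in EpiLC against mESC-ser. The 1 rise in mESC-ser, of mt-Nd6, was not called with either offset. The 2 that fell in EpiLC were mt-Nd5 (-1.52 over mESC-2i) and mt-Nd4l (-1.97). With offsets from merged exon length 0 of the 7 were called higher over mESC-2i and the same number, 2, lower. Some of these genes overlap on the mitochondrial genome, so single values are uncertain. Of 9 other assembly factors 1 rose and 1 fell in mESC-ser, and 3 rose and 1 fell in EpiLC against mESC-2i, shares near or below those of all tested genes. Ecsit and Acad9, which share a complex with Ndufaf1, parted: Ecsit rose by 2.02 (SE 0.10, adjusted p = 4.78e-08) and Acad9 fell by 0.52 (SE 0.11, adjusted p = 0.00114) in EpiLC against mESC-2i. Offsets left the Ecsit call and removed that of Acad9, at -0.03 and -0.09.

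The nuclear subunits of complexes II to V gave counts near those of complex I. Of 44 tested, 36 fell in mESC-ser (median -0.85), and 31 rose and 1 fell in EpiLC against mESC-2i (median 1.14), where 30.3% of all tested genes fell in the first and 32.0% rose and 37.8% fell in the second. With offsets from coding transcript length these became 25, and 16 with 4 lower, at medians of -0.60 and 0.30, beside 27.7% of all tested genes lower in the first and 30.3% higher and 34.0% lower in the second. The proteins of the mitochondrial ribosome stood apart in counts alone, with no test of the difference: 12 of 76 fell, at a median of -0.23, where the complex I subunits had 31 of 36. In EpiLC 69 of the 76 rose over mESC-2i, at a median of 1.22, and 58 with offsets from coding transcript length, at a median of 0.96.

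Start sites were read from RefSeq (GRCm38.p6), which gave windows from 250 bases before to 50 after the start for 40 of the 46 members and for 27025 genes in all. Motifs were searched on both strands, with positions counted from the start site. The YY1 core AAGATGGC stood in 7 of 32 subunits (21.9%) against 3.19% of all genes, and in 1 of 7 assembly factors. All 8 lay after the start site on the strand of the gene, 22 to 38 bases downstream in the subunits. A match on that strand anywhere after the start stood in 1.04% of all genes. The motif holds ATG, and whether it is the translation start was not tested. The sites are shown as 30 bases with the core in capitals, since the core recurs at nearly one place.
Ndufa3, chr7:3617377-3617406, plus strand: cttgtcgccgccaagaacAAGATGGCcggg
Ndufa9, chr6:126849104-126849133, minus strand: cgtgaggcattgtgggagAAGATGGCggcc
Ndufb8, chr19:44555393-44555422, minus strand: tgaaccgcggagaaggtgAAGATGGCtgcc
Ndufc1, chr3:51408922-51408951, minus strand: aggcggagcctgcggaacAAGATGGCgccg
Ndufs4, chr13:114388048-114388077, minus strand: ctggcgtttgcctacaggAAGATGGCggcg
Ndufs6, chr13:73328438-73328467, minus strand: gggtcaagggtcaccggcAAGATGGCggcg
Ndufs7, chr10:80249455-80249484, plus strand: tgtctgaaggccgaggccAAGATGGCggcg
Ndufaf8, chr11:120098926-120098955, plus strand: ccggaagaggcagggcccAAGATGGCggcg

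The 7 subunits with this core did not move by one amount. Their log2 fold changes ran from -1.29 (Ndufs4) to -0.26 (Ndufs6) in mESC-ser and from 0.61 (Ndufa3) to 1.67 (Ndufs6) in EpiLC, both over mESC-2i. The NRF1 core GCGCATGC stood in 3 of 32 subunits (9.38%; Ndufa6, Ndufa8 and Ndufa11) and 2 of 7 assembly factors (Ndufaf4 and Ndufaf5) against 3.05% of all genes. Its letters nearly mirror themselves, so one site can match on both strands, as in Ndufa11, Ndufaf4 and Ndufaf5. The ETS core CCGGAAG was in 4 of 32 subunits (12.5%, all genes 9.93%) and 2 of 7 assembly factors. The GC box GGGCGG was in 15 subunits (46.9%, all genes 38.2%) and 6 assembly factors, and the ERR element AAGGTCA in 3 subunits (9.38%, all genes 5.38%) and no assembly factor, which in 7 windows says only that these letters were not there.

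The 250 bases before the start are printed for the subunits with the largest change of each comparison, with all motif matches in capitals. Ndufb4 holds an ERR element at position -55 and a GC box at -110, Ndufb2 an ERR element at -181, and Ndufa13 GC boxes at -241, -80 and -60. No matches overlap here.
Ndufb4, chr16:37654369-37654618, minus strand: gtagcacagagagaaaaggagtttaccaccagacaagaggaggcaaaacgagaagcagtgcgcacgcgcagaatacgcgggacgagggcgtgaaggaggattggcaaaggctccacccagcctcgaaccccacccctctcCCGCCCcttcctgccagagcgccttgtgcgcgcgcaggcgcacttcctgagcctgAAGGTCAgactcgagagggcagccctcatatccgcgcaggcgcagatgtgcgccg
Ndufb2, chr6:39592315-39592564, plus strand: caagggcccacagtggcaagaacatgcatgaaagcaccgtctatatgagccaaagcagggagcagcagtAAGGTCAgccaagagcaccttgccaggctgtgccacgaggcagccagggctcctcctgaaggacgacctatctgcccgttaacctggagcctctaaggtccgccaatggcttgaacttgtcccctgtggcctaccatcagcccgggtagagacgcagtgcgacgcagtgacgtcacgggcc
Ndufa13, chr8:69902021-69902270, minus strand: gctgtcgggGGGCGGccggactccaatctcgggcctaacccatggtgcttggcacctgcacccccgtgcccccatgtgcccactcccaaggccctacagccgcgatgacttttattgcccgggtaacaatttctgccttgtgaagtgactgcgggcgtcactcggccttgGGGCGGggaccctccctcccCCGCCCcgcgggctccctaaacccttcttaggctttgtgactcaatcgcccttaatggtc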

How the data were processed

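The 9 libraries of polyadenylated RNA were read as 50 bp single ends. The authors deposited raw read counts, 1 row for each Ensembl gene. Per the labels they trimmed reads with Trim Galore 0.6.6, aligned them to mm10 with HISAT2 2.2.1 and counted them with featureCounts of Subread 2.0.1. The strand setting and the handling of reads with several alignments are not given in the sources used here. Columns were matched to libraries by name, the serum columns by the initials of their titles.

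For each pair of states a separate model of 6 libraries was made in edgeR 4.0.16 (R 4.3.3, limma 3.58.1): filterByExpr, TMM, quasi-likelihood F-test, and Benjamini-Hochberg adjustment over all tested genes. All 46 genes passed the filter on low counts in every comparison. SE were taken from the F statistic. Symbols, positions and lengths come from GENCODE M21 (GRCm38), which matched 36429 of 38293 identifiers (95.13%). Offsets were natural splines with 5 degrees of freedom in log length and in GC content, fitted per library. The members were chosen by symbol, and the lists with earlier results of these data known. Genes named in full were core subunits, the assembly factors, Ndufa4, Ndufa4l2, the paralogs Ndufa12 and Ndufaf2, and the 3 highest and 3 lowest per comparison and by level, with others as examples, and 1 member is counted in the lists but not reported or plotted here by itself. The tests were also run on simulated counts in which 200 genes differed. Far more genes than that were called here, so the run does not show how the calls behave in these data.

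Between mESC-ser and mESC-2i libraries, deviations from group means correlated at 0.127 to 0.34 for equal replicate numbers and -0.276 to 0.144 otherwise. These ranges overlap, while those of the EpiLC comparisons, given below, do not. Whether equal numbers mark pairs is not known, and the main fits did not use them. Counts of replicates differed beyond sampling noise in every pair (chi-square per degree of freedom 1.66 to 30.5). DESeq2 1.42.0 served as an alternative, beside other scalings, filters, thresholds, offsets, the replicate block and leaving out each library.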

Additional observations from a re-analysis of the deposited data

How the results depend on the processing

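Subunits lower in mESC-ser against mESC-2i numbered 31, beside 30.3% of all tested genes. The number was 29 under RLE scaling (29.4% of all tested genes) and DESeq2, and 12 at an absolute log2 fold change over 1. With offsets from coding transcript length, added after seeing the data, 17 were lower (27.7% of all tested genes). With 1 library left out 26 to 32 were lower, the fewest without mESC-2i replicate 2. For DESeq2, the threshold of 1, the replicate block and fits with 1 library left out, no share over all tested genes is given. Those counts, here and below, are therefore not set against a background. Subunits higher were 1 (Ndufs1) without a fold threshold. Assembly factors higher were 1 with offsets from either length and in the replicate block with length and GC offsets, and those lower were 1 at a log2 fold change over 1 and 1 by coding transcript length, and 2 to 2 with 1 library left out. In EpiLC against mESC-2i subunits higher were 19 at a log2 fold change over 1 and 13 by coding transcript length, and 30 to 31 with 1 library left out. Subunits lower were 1 under total-count scaling, and assembly factors lower were 1 (Ndufaf5, -0.60) by coding transcript length, with 6 to 6 higher with 1 library left out. In EpiLC against mESC-ser the ranges were 34 to 35 for subunits and 7 to 8 for assembly factors. Every count of 0 in the other direction stayed at 0 to 0 with 1 library left out. The reversed values lay in this last comparison for Ndufs1 (0.84 with length and GC offsets, 0.85 in the block with them) and, by coding transcript length, for Ndufv1 (-0.14) and Ndufb10 (-0.14), and in EpiLC against mESC-2i for Ndufa3 (-0.32) and Ndufb9 (-0.18). These settings remove a trend with length by construction.

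With the replicate block 31 subunits were lower in mESC-ser, 31 higher in EpiLC against mESC-2i and 34 higher in EpiLC against mESC-ser, 1 fewer than without it, and no other call changed. Equal numbers correlated at 0.0221 to 0.109 for EpiLC with mESC-2i, and other pairs at -0.114 to 0.0103. For EpiLC with mESC-ser the ranges were 0.017 to 0.0339 and -0.0315 to 0.016. In both of these comparisons every equal-number pair lay above every other pair, though all of these correlations were weak. The main fits took them as pairs in no comparison. The scarcest member, Ndufa4l2, had 11 counts in its lowest library and the next, Ndufaf8, had 66. With length offsets, a technical length trend and a change in short genes cannot be told apart, and they use an annotated length that need not be the one transcribed.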

Other observations

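Of 10 regulators of mitochondrial genes chosen from general knowledge, 9 were tested and Ppargc1a was near 0 in every library. Esrra, a nuclear receptor that binds ERR elements, had its lowest level in mESC-ser: it fell in mESC-ser against mESC-2i (log2 fold change -0.98, SE 0.13, adjusted p = 8.91e-05 by edgeR) and rose in EpiLC against mESC-ser (1.44, SE 0.11, adjusted p = 3.73e-09). In EpiLC against mESC-2i it was not called without offsets (0.41, SE 0.13, adjusted p = 0.0136), and either offset brought a call, at 0.65 and 0.50. Its levels were 18.9, 24.5 and 21.8 CPM (mESC-2i), 11.8, 11.7 and 10.9 CPM (mESC-ser) and 31.7, 30.4 and 25.9 CPM (EpiLC), so that the mESC-ser libraries lay below all others and EpiLC above. Its relative Esrrb, a naive factor, fell by 5.55 in EpiLC against mESC-2i. Gabpa, which binds ETS motifs, ran the other way, higher in mESC-ser (0.94, but not called at 0.45 by coding transcript length) and lower in EpiLC (-1.27), both against mESC-2i. Yy1 rose in mESC-ser (0.65, but not called at 0.35 by coding transcript length) and was not called in EpiLC against mESC-2i (-0.48). Tfam, which maintains mitochondrial DNA, rose in EpiLC against mESC-2i (0.76) and was not called in mESC-ser (0.33). In all, 3 of the 9 rose and 2 fell in mESC-ser, and 2 rose and 2 fell in EpiLC, both against mESC-2i. Over all tested genes 25.9% rose and 30.3% fell in the first, and 32.0% rose and 37.8% fell in the second. With offsets from merged exon length 5 rose and 2 fell in EpiLC against mESC-2i, beside 31.1% of all tested genes higher and 34.4% lower. By coding transcript length 1 of the 9 rose and 2 fell in mESC-ser (24.2% of all tested genes higher, 27.7% lower). In EpiLC against mESC-2i 5 rose and 2 fell by that length (30.3% higher, 34.0% lower).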
